A study of Mus musculus with 2 samples.

Results

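Olfactory receptor genes (Olfr genes) encode the G protein-coupled receptors with which sensory neurons of the nose detect odorants. They are arranged in clusters on many chromosomes, their coding sequence is usually an unbroken exon, and each sensory neuron expresses a single receptor allele while the remaining receptor genes are held in compact chromatin. Outside the nose, including in blood cells, most of them are silent, so their coding spans can serve as a measure of the signal that DNase I gives on closed chromatin.

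The members described here are the genes of the deposited table whose symbol is Olfr followed by a number, and the transcript touching most windows stands for each. The rule found 1113 genes among 22575 on chromosomes 1 to 19 and X. DNase I hypersensitive site sequencing (DHS-seq) of M1 cells was analyzed, with 1 library from untreated cells and another from cells given interleukin-6 (IL-6) for 4 to 5 days. M1 is a line of murine myeloid progenitor cells from a leukemia, which stops dividing and matures toward macrophages when IL-6 is added. Both libraries were of passages 15 to 18 of this line, in medium with horse serum, and nuclei were lightly digested with DNase I and short fragments sequenced. Each condition is a single library, so replicate error is unknown, no test across libraries was possible, and the 95% intervals given here cover counting error only.

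The table gives the mean signal over the 700-bp windows that the span from start to stop codon touches. A read had the value 1 in the untreated library and had been scaled to 1.03816 in the IL-6 library, so the reads behind every mean could be recovered. A level is the number of scaled reads per window, and a ratio is the level with IL-6 over the level without. The Olfr genes lie on 18 chromosomes in 50 clusters, defined as runs of members with gaps of at most 1 Mb. There are 30 clusters with at least 5 members, and these hold 1076 of the genes. The coding span is in a single exon for 1079 members and has a median length of 942 bp. It touches 2 windows in 742 members, 3 windows in 353, 1 window in 1 and more in 17. Because the receptors resemble each other, the share of 32-bp sequences of the windows that occur once in the NCBIM37 genome was computed as uniqueness. Its median was 87.4%, 503 members were at least 90% unique and 58 were less than 50% unique. Only 3 members shared windows with the coding span of another gene (Olfr20 with Spata22, and Olfr287 and Olfr288 with each other).

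Reference sequences are shown first for Olfr1509, for 3 of its neighbors on chromosome 14 and for Olfr1264, because the 3 members at 10 or more times the median level are among them. Each is the first 120 bases of the coding span in NCBIM37, from 5′ to 3′ on the strand of the gene, with the start codon in capitals. Olfr1509 lies at chr14:53070090-53070209 on the plus strand, Olfr1508 at chr14:53083563-53083682, Olfr1507 at chr14:53110518-53110637, Olfr1511 at chr14:53010327-53010446 and Olfr1264 at chr2:89862102-89862221, all 4 on the minus strand.
Olfr1509: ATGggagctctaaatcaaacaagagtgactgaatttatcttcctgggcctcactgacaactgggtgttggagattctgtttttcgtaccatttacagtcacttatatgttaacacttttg
Olfr1508: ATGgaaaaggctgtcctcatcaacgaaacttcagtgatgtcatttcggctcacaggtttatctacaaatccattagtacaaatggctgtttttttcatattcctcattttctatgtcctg
Olfr1507: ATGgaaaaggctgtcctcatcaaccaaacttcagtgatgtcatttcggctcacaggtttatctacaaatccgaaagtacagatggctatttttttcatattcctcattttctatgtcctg
Olfr1511: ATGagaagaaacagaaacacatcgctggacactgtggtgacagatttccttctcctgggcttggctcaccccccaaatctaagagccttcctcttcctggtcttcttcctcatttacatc
Olfr1264: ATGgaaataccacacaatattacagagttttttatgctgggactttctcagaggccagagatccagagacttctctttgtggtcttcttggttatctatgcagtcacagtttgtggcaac

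The median Olfr gene had less signal than the median gene in both libraries. In untreated M1 cells the median member had 3.67 reads per window (quartiles 2 and 6), while the median of all 22575 genes was 7.76. In IL-6-treated cells the median member had 5.54 scaled reads per window (quartiles 3.11 and 8.31) against 8.15 for all genes. The median member stood at the 22.2 percentile of all genes in untreated cells and at the 30.1 percentile with IL-6. In untreated cells 956 of 1113 members (85.9%) were below the median gene, and with IL-6 820 members (73.7%) were. Few members were empty: 19 had 0 reads without IL-6, 12 had 0 reads with it, and 6 were empty in both.

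**Figure D1:**
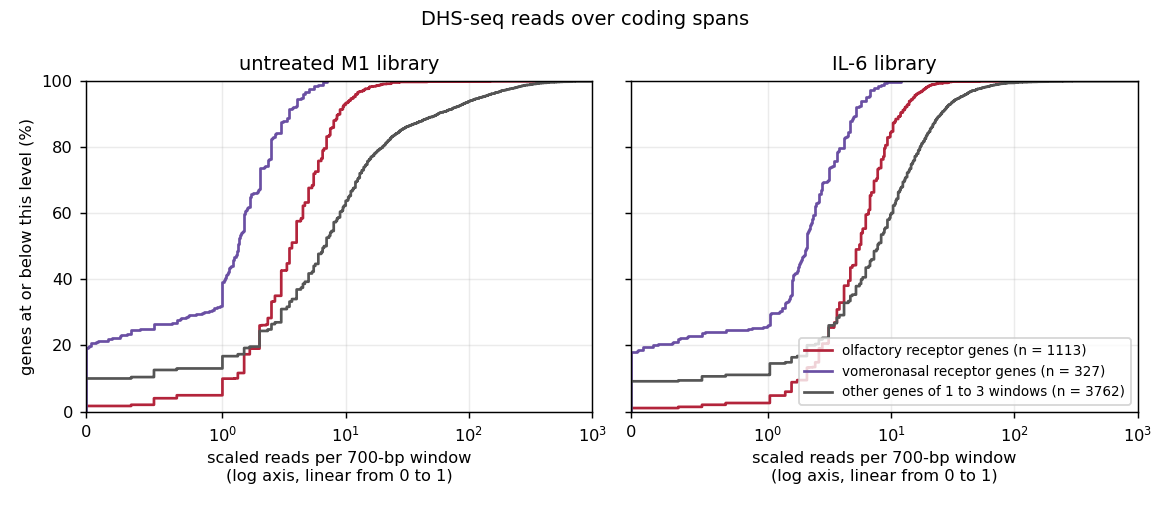
Share of genes (vertical axis, percent) at or below each level (horizontal axis, scaled reads per window, log axis that is linear from 0 to 1) in the untreated library (left) and the IL-6 library (right), for 1113 Olfr genes, 327 vomeronasal receptor genes and 3762 other genes of 1 to 3 windows. The Olfr curve is steep around medians of 3.67 and 5.54, lies to the right of the vomeronasal curve, and lacks the long upper tail of the other short genes.

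Summed over the 1112 members that share no window, the 2751 windows held 14225 reads without and 17045 reads with IL-6. These sums come to 5.17 reads per window (95% interval 5.09 to 5.26) and 6.43 scaled reads per window (6.34 to 6.53). The same sum over all genes gave 7.56 and 7.38 per window. Other genes of 1 to 3 windows, the class of span most like the receptors in length, had 31.2 and 18.1 per window but medians of 6.67 and 7.79, since a few of them held very large numbers of reads. The 206 other genes lying inside the Olfr clusters had 9.48 and 7.40 per window, more than the receptors around them in both libraries. Their medians were 5.98 and 7.27.

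The vomeronasal receptor genes (Vmn1r and Vmn2r), which encode the pheromone receptors of the vomeronasal organ and are likewise clustered and silent in blood cells, were lower still. Over 327 genes their level was 1.26 in untreated cells (1.23 to 1.29) and 1.87 with IL-6 (1.83 to 1.91). The Olfr level was thus 4.10 and 3.43 times theirs. The medians were closer, 3.67 and 5.54 for Olfr genes against 1.33 and 2.08 for vomeronasal genes. Vomeronasal spans are also longer, 4879 windows in 327 genes against 2751 windows in 1112 Olfr genes. The part of span length in the difference was not tested. Vomeronasal spans are less unique (median 66%), and among genes at least 90% unique the levels were 6.75 and 7.997 for 503 Olfr genes and 1.90 and 3.01 for 47 vomeronasal genes. The ratio between the families was then 3.54 and 2.66. Base composition differed as well, with a median G+C of 39.6% in Olfr windows, 37.9% in vomeronasal windows and 48.9% in other short genes. The median ratio of observed to expected CpG was 0.145, 0.114 and 0.304 in the same order. The part of composition in the difference between Olfr and vomeronasal levels was not tested. The bins given below set Olfr genes beside other short genes only.

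The study called a hypersensitive site from more than 21 reads, without giving the size of the region counted. With this limit applied to the 700-bp windows, very few Olfr windows passed. For spans of 2 windows the mean and the SD together give the reads of both windows, without saying which window comes first. Of 1484 such Olfr windows, 17 (1.15%, 95% Clopper-Pearson interval 0.669 to 1.83) had more than 21 reads in untreated cells, against 11.6% of the windows of all 2-window genes. With IL-6 the limit was applied to scaled reads, so a window of exactly 21 reads also passed. The numbers were then 31 windows (2.09%, 1.42 to 2.95) and 9.38%. These windows belonged to 14 genes in untreated cells and 26 genes with IL-6, and 11 genes had such a window in both libraries. The median Olfr window held 4 reads in untreated cells and 5.19 scaled reads with IL-6, and 8.42% and 5.66% of the windows were empty. Over the windows of all 2-window genes the medians were 4 and 6.23. More of those windows were empty, 15.2% in untreated cells and 12.8% with IL-6.

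As a family the Olfr spans gave more reads in the IL-6 library, by a small factor. The ratio of the summed levels was 1.24 (1.22 to 1.27), whereas it was 0.976 over all genes, 0.781 over the other genes inside the Olfr clusters and 1.49 over the vomeronasal genes. The median of the other genes inside the clusters went against their sum. It was 5.98 in untreated cells and 7.27 with IL-6, higher with IL-6 as for the Olfr genes. Without Olfr1509, which alone held 8.68% of the Olfr reads in untreated cells and 1.18% with IL-6, the level was 4.72 and 6.36 and the ratio 1.35 (1.32 to 1.38). Of 1113 members, 865 were higher and 242 lower with IL-6, and the other 6 had no read in either library. Before scaling, 785 members had more reads in the IL-6 library, 245 fewer and 77 equal numbers. The direction was the same with the 4 other scalings tried. The scaling between the libraries sets its size. Where both libraries had at least 22 reads per window, which held for 928 genes, the median gene had a ratio of 0.391, and setting that median to 1 would raise every log2 ratio by 1.36 and the Olfr ratio to 3.18.

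Counting error is large for single members, of which only 605 had at least 20 reads over both libraries. Of these, 111 (18.3%) were at least 2-fold higher with IL-6, where 2.43% of all 19776 genes with as many reads were. At least 2-fold lower were 5 members (0.826%), where 12.6% of all genes were. The 95% interval of the ratio lay above 1 for 85 members (14%, against 27.5% of all genes) and below 1 for 6 (0.992%, against 32.1%). Most genes span far more windows than a receptor and hold more reads. Their intervals are narrower and counting error carries them past 2-fold less often, so neither pair of shares is like for like. With 5 reads added to each library, 43 members were at least 2-fold higher, a count without a matched share over all genes. Other genes of 1 to 3 windows had 8.55% of intervals above 1 and 27.6% below 1, with 6.72% at least 2-fold higher and 24.4% at least 2-fold lower. The median log2 ratio of the 605 members was 0.46, beside 0.05 for all genes and -0.03 for other short genes. For the 121 vomeronasal genes with at least 20 reads it was 0.59, so the shift was not particular to the Olfr genes. Of these vomeronasal genes 10.7% were at least 2-fold higher and 0% lower, with 44.6% of intervals above 1 and 0.826% below.

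**Figure D2:**
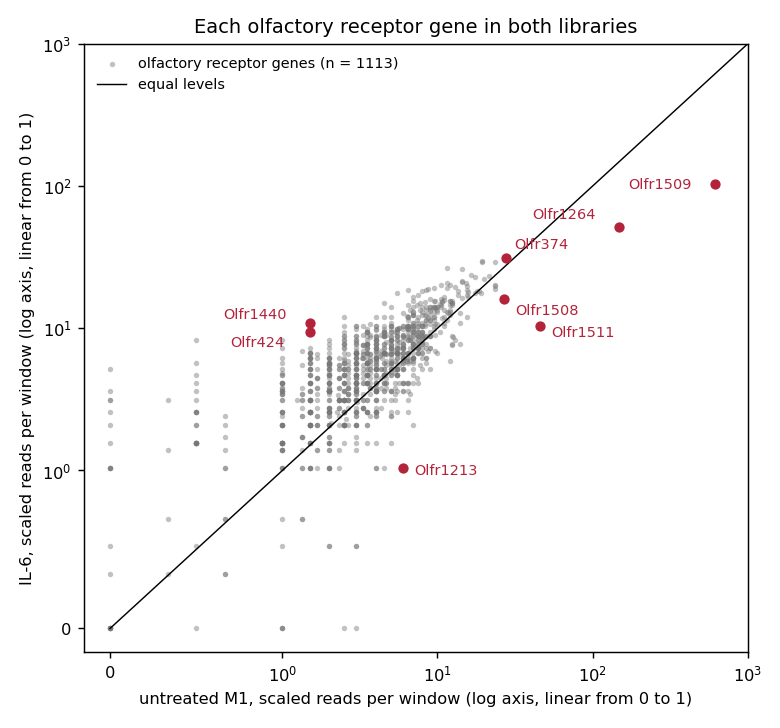
Level of each of the 1113 Olfr genes in the untreated library (horizontal axis) and the IL-6 library (vertical axis), both in scaled reads per window on log axes that are linear from 0 to 1, with the line of equal levels. Most points lie above the line (865 genes), while the named Olfr1509, Olfr1264, Olfr1511 and Olfr1508, 4 of the 5 strongest in untreated cells, lie below it.

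The strongest members were few. Olfr1509, a receptor gene in the cluster of the well-studied receptor MOR28 (Olfr1507), had 1238 reads in untreated cells and 201 with IL-6. Its span lies at chr14:53070090-53071016 in NCBIM37, in a single exon, and its windows run from 53069801 to 53071200. The level was 619 (585 to 654) in untreated cells, the tenth highest of all 22575 genes, and 104 (90.4 to 120) with IL-6, rank 21. Ranks given here compare means over whole spans. Most genes span far more windows than a receptor, so they are not ranks of single sites. The windows held 212 and 1026 reads in untreated cells and 43 and 158 reads with IL-6, so both windows were above the 21 reads of a site in both libraries. This is 169 times the median member in untreated cells and 18.8 times with IL-6. The ratio was 0.169 (0.144 to 0.196), a log2 ratio of -2.57. Its windows are 100% unique, no other gene's coding span touches them, and the nearest coding gene outside the family, Sall2, is 122 kb away.

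Olfr1264, on chromosome 2 (chr2:89861295-89862221), was the second strongest. It had 297 reads in untreated cells, 70 and 227 in its windows, and 100 reads with IL-6, 29 and 71 in its windows. Its level was 148 (132 to 166) and 51.9 (42.2 to 63.1), at ranks 194 and 104 of all genes, and the ratio was 0.350 (0.276 to 0.440). Its windows are 95.8% unique and 126 kb from the nearest other coding gene, Gm4222. Both spans had ratios below the 0.391 of the median strong gene, Olfr1509 with its whole interval below that value and Olfr1264 with an interval that includes it. By coding sequence the pair are not close copies: 65.3% of aligned positions were identical, and the member nearest to Olfr1509 in edit distance was Olfr1508 (68.4% identical).

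Olfr1511 had 138 reads in untreated cells and 30 with IL-6, a level of 46 and 10.4 and a ratio of 0.226 (0.147 to 0.337), with windows 69.95% unique. Olfr1508 had 54 and 31 reads, with 27 in each window of untreated cells, and a ratio of 0.596 (0.370 to 0.944). Olfr374 on chromosome 8, the fourth strongest in untreated cells, did not share this direction: it had 55 reads without and 60 with IL-6 (ratio 1.13, 0.772 to 1.66). With IL-6 the 4 strongest members were Olfr1509, Olfr1264, Olfr374 and Olfr982, with Olfr229 and Olfr285 equal in the next place. Olfr982 and Olfr229, both on chromosome 9, had 39 reads each in untreated cells and 57 and 56 with IL-6, and Olfr285 on chromosome 15 had 47 and 56.

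The levels of the neighbors of Olfr1509 are given next, with their base composition. The 7 members from Olfr1513 to Olfr1507 lie within 142 kb at the end of the chromosome 14 cluster, and all were above the median member in both libraries. In untreated cells their levels, in order along the chromosome, were 13.7 for Olfr1513, 17.5 for Olfr1512, 46 for Olfr1511, 23.5 for Olfr1510, 619 for Olfr1509, 27 for Olfr1508 and 11.7 for Olfr1507. With IL-6 they were 18.3, 17.6, 10.4, 20.2, 104, 16.1 and 12.8 in the same order. The G+C of their windows was 48%, 50.7%, 45.7%, 47.7%, 42%, 41.5% and 40.2%, against a median of 39.6% over all members. Among members at least 90% unique, those of 46 to 60% G+C had median levels of 10 and 14.02 in the untreated and IL-6 libraries. The part of composition in the levels of the neighbors was not tested. The intervals of Olfr1513, Olfr1512, Olfr1510 and Olfr1507 included a ratio of 1, and those of the other 3 lay below it. Olfr1507 itself had nearly all its reads in 1 of 3 windows, with 3, 3 and 29 reads in untreated cells and 2, 4 and 31 with IL-6. The 6 neighbors without Olfr1509 had a level of 23.3 in untreated cells and 15.5 with IL-6. The other 29 members of the cluster had 4.11 and 5.59, near the family's level, and a ratio of 1.36 (1.16 to 1.59).

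**Figure D3:**
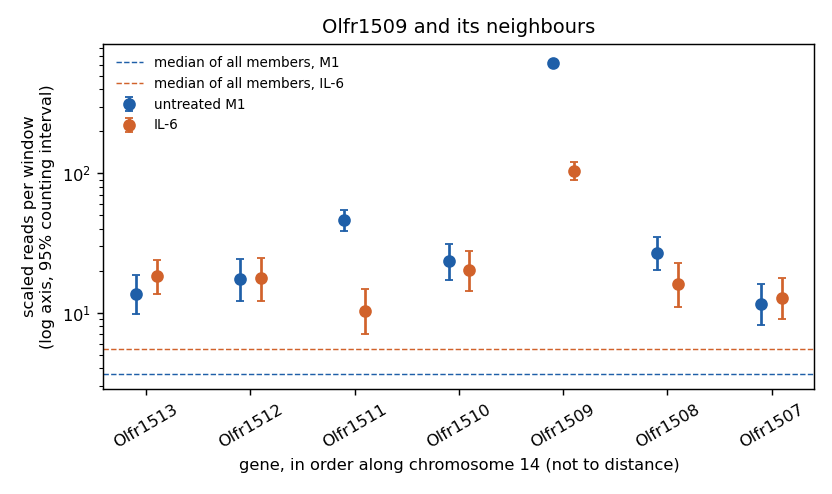
Level (vertical axis, scaled reads per window, log axis, bars 95% counting intervals) of Olfr1509 and its neighbors in order along chromosome 14 in untreated (blue) and IL-6-treated (orange) cells, with the median of all members as dashed lines at 3.67 and 5.54. Olfr1509 stands at 619 and 104, all 7 genes are above the dashed lines, and Olfr1511 drops from 46 to 10.4.

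Binding sequences of blood-cell factors were counted in the windows of the 742 members of 2 windows, on both strands. The motifs were chosen after the values of Olfr1509 had been seen, and a match is a description of the sequence, not a bound site. GAGGAAG, a core sequence of the myeloid factor PU.1, occurred in 45.01% of these spans. Olfr1509 held 4 matches, a number that 5 spans (0.674%) reached, and Olfr1264 held 1. The other 4 spans with at least 4 matches were Olfr1351, Olfr315, Olfr1270 and Olfr679, and their levels in untreated cells were 7, 10, 7 and 1.5. By number of matches the median level in untreated cells was 3.5 for 0, 4 for 1, 5.5 for 2 and 6 for 3 or more, and median G+C rose in parallel from 39.1% to 44.8%. The matches of Olfr1509 lie in both windows, and they are shown in capitals in the stretches chr14:53070205-53070369 and chr14:53070844-53070979, plus strand, with the reverse complement where the match is on the other strand.
Olfr1509 first window: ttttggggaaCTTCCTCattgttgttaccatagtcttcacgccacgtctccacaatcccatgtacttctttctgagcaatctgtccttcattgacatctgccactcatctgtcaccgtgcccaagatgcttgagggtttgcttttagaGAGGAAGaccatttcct
Olfr1509 second window: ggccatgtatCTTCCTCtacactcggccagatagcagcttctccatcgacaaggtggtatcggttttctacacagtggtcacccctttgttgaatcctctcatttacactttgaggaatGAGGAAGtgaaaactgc

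The windows of Olfr1509 held no match to TGANTCA (AP-1, 40.6% of spans), TGTGGTT (Runx, 38.4%), TTGCNNAA (C/EBP, 56.6%) or CACGTG (E-box, 8.89%). They held 2 matches to CCAAT (NF-Y, 93.5%), which shared no base with the PU.1 matches.

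Levels differed between chromosomes, and the ratio was above 1 on 15 of the 16 chromosomes with at least 5 members. Chromosome 2, with 286 members, had 3.73 reads per window in untreated cells and 4.59 with IL-6. Chromosome 7, with 240, had 5.01 and 7.202, and chromosome 9, with 129, had 4.49 and 6.23. The highest levels apart from chromosome 14 were on chromosome 8 (14.9 and 15.4, 5 members) and chromosome 15 (14.8 and 20.5, 9 members). The lowest were on chromosome X (1.47 and 3.11, 7 members) and chromosome 10 (2.36 and 3.28, 68 members). All other genes of chromosome X were also low, at 2.02 and 1.87, but the other genes of chromosome 10 were not, at 6.402 and 6.25. The intervals of the ratio lay above 1 on 14 chromosomes, included 1 on chromosome 8 (1.03, 0.82 to 1.30) and lay below 1 on chromosome 14.

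The direction on chromosome 14 rested on a few genes. Its 40 members had 20.6 reads per window in untreated cells and 9.87 with IL-6, a ratio of 0.479 (0.44 to 0.52). The median members had 3.67 and 5.97, a ratio of 1.63. Without Olfr1509 the ratio of the chromosome was 0.999, and without all members that reached 2 times the median level in either library it was 1.55.

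The same held for clusters, where the ratio was above 1 in 29 of 30 and the interval lay above 1 in 24. The exception was the chromosome 14 cluster from Olfr722 to Olfr1507 (50.5 to 53.1 Mb), with a ratio of 0.444 (0.408 to 0.482), and 0.978 (0.873 to 1.09) without Olfr1509. The largest cluster, 221 genes on chromosome 2 from 85.2 to 90.1 Mb, had 3.72 and 4.34 reads per window and a ratio of 1.17 (1.10 to 1.24), or 1.32 (1.24 to 1.41) without Olfr1264. Besides chromosome 14 the highest levels were those of the 9 genes on chromosome 15 at 98.0 to 98.3 Mb (14.8 and 20.5) and the 8 genes on chromosome 1 at 94.4 to 94.5 Mb (10.8 and 13.98). The lowest were those of 5 genes on chromosome X (1.5 and 3.29), 58 genes on chromosome 10 at 128 to 130 Mb (1.95 and 2.94) and 25 genes on chromosome 16 at 58.8 to 59.4 Mb (2.18 and 2.89). Ratios were highest on chromosome X (2.19, 1.22 to 4.08), in the 6 genes on chromosome 4 at 43.7 to 43.9 Mb (1.56, 1.24 to 1.97) and in the 5 genes on chromosome 6 at 116.4 to 116.5 Mb (1.54, 1.13 to 2.11). After chromosome 14 they were lowest in the 10 genes on chromosome 10 at 78.0 to 78.5 Mb (1.10, 0.84 to 1.44) and in the large chromosome 2 cluster. Of the 406 pairs among the other 29 clusters, 399 had overlapping intervals, so most of this order is not resolved at this depth.

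**Figure D4:**
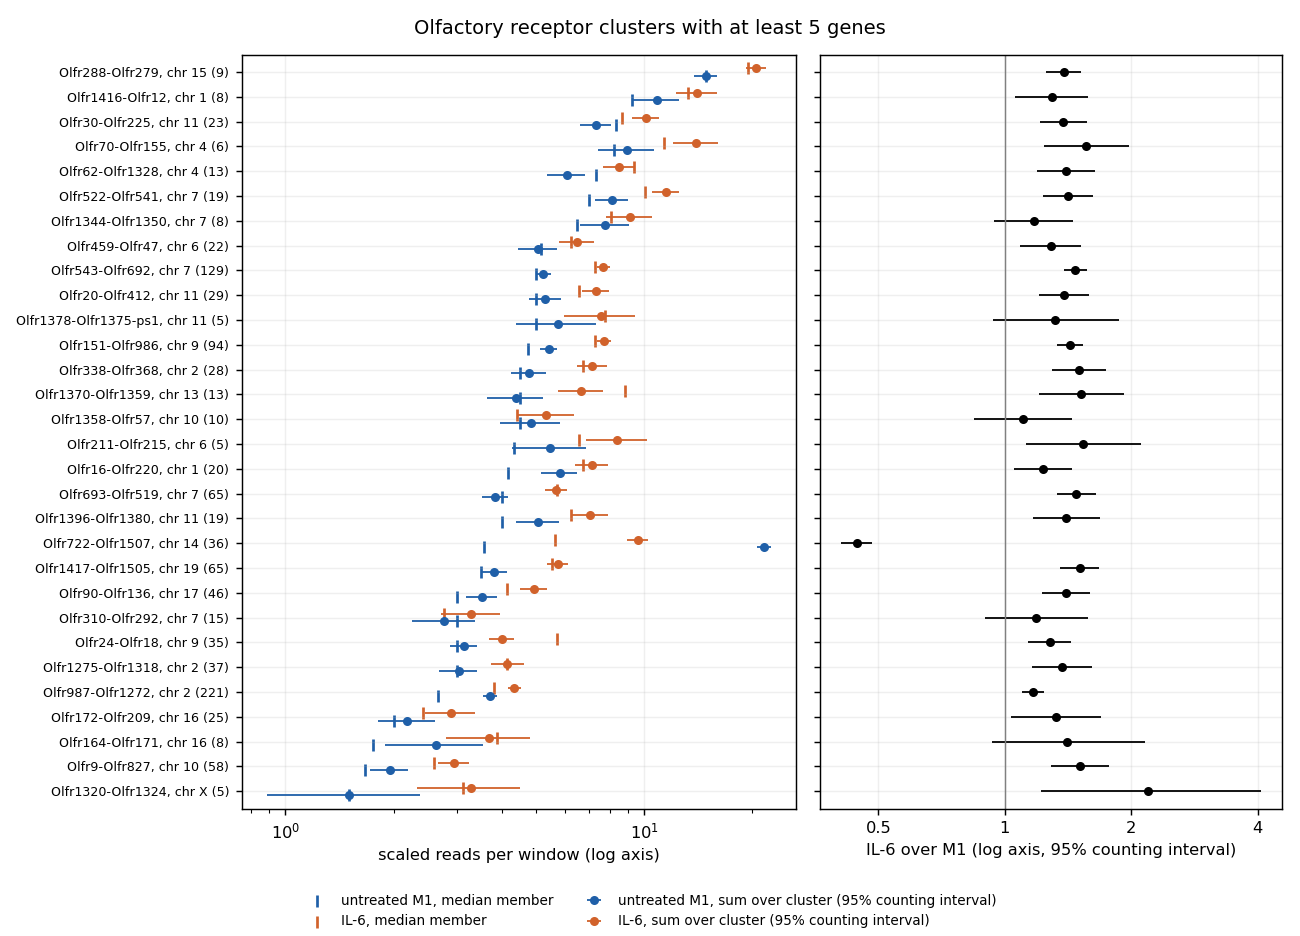
Left, level of each of the 30 clusters with at least 5 Olfr genes (horizontal axis, scaled reads per window, log axis) in untreated (blue) and IL-6-treated (orange) cells, as the sum over the cluster with its 95% counting interval (dots) and the median member (ticks), ordered by the median in untreated cells, with gene numbers in parentheses. Right, the ratio of the sums on a log axis with its 95% interval. The ratio is above 1 in 29 clusters, and in the chromosome 14 cluster the sums (21.6 and 9.57) lie far above the median members (3.58 and 5.62).

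Class I receptors, the fish-like class that mammals keep in a single cluster around the beta-globin genes on chromosome 7, are the 129 genes from Olfr543 to Olfr692 (109.6 to 112.5 Mb). Their level was 5.22 (4.98 to 5.48) in untreated cells and 7.68 (7.37 to 7.996) with IL-6. The 983 class II genes had 5.16 (5.07 to 5.25) and 6.27 (6.17 to 6.37). The ratios were 1.47 (1.38 to 1.57) and 1.21 (1.19 to 1.24), and 1.33 (1.30 to 1.36) for class II without Olfr1509. The median member of class I had 5 reads per window in untreated cells, beside 3.5 for class II. Among members at least 90% unique these medians were 6 and 4.5.

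The level of a cluster moved with its base composition. Over the 30 clusters the Spearman correlation between the median level and the median G+C of the windows was 0.84 in untreated cells and 0.82 with IL-6 (Pearson 0.81 and 0.80), while that with median uniqueness was -0.07 and 0.04. These points share the same library and many neighboring windows, and the values are descriptions. To show the composition, the first 90 bases of the coding span are given for 3 members of the chromosome 15 cluster and 3 of the chromosome 10 cluster, from NCBIM37, 5′ to 3′ on the strand of the gene, with G and C in capitals. The members are those nearest to the median G+C of their cluster among members at least 90% unique with a single coding exon that begins with ATG. Olfr284 (chr15:98171281-98171370), Olfr283 (chr15:98209450-98209539), Olfr285 (chr15:98143890-98143979), Olfr770 (chr10:128570733-128570822) and Olfr807 (chr10:129192415-129192504) are on the minus strand, and Olfr790 (chr10:128937942-128938031) is on the plus strand.
Olfr284: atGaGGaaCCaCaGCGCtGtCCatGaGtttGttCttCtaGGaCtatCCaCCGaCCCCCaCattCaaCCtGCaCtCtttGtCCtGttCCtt
Olfr283: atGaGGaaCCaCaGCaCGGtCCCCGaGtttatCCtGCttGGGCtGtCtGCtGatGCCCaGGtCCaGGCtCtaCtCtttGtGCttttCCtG
Olfr285: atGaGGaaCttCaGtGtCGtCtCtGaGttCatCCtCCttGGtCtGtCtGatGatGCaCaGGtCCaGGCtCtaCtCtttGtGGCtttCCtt
Olfr770: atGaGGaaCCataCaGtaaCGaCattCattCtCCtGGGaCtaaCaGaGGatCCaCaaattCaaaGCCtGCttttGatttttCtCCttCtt
Olfr790: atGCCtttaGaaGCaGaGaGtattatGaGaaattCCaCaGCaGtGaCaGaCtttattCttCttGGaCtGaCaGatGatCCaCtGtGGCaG
Olfr807: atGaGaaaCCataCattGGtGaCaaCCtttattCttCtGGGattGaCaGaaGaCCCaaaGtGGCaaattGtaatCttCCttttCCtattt

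The chromosome 15 stretches are 50%, 55.6% and 48.9% G+C and the chromosome 10 stretches 40%, 42.2% and 36.7%. The windows of the clusters had a median G+C of 49% and 37.6%, and their median members had 14.8 and 1.67 reads per window in untreated cells. Median uniqueness was 93.1% and 75.1%, so the pair differ in that measure too. The chromosome 15 cluster had the highest median in untreated cells, but the chromosome 10 cluster was chosen by name and is not the lowest. The chromosome X cluster of 5 genes had a lower median, 1.5, at a median G+C of 41.6% and a uniqueness of 100%.

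Among the 503 members at least 90% unique the same trend held member by member, with a Spearman correlation of 0.63 between G+C and the level in untreated cells and 0.72 with IL-6. In windows of 30 to 36% G+C the median level was 2.67 and 3.98 (74 members). At 38 to 40% it was 4.5 and 6.58 (93 members), and at 46 to 60% it was 10 and 14.02 (61 members). Other short genes of the same uniqueness showed the trend as well. Their medians were 1.33 and 1.56 at 30 to 36%, 3 and 4.15 at 38 to 40%, and 12.7 and 14.02 at 46 to 60%, where their windows had a median G+C of 53.3% against 48.4% for the receptors. In every bin below 44% G+C the median receptor was above the median of the other short genes in both libraries, though over all short genes it was below. Distance from other genes moved along with both. Members less than 10 kb from the next coding gene outside the family had a median of 9 in untreated cells and 47.8% G+C (25 members), and those 200 kb to 1 Mb away had 4 and 37.7% (198 members). The separate parts of composition and distance were not tested.

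**Figure D5:**
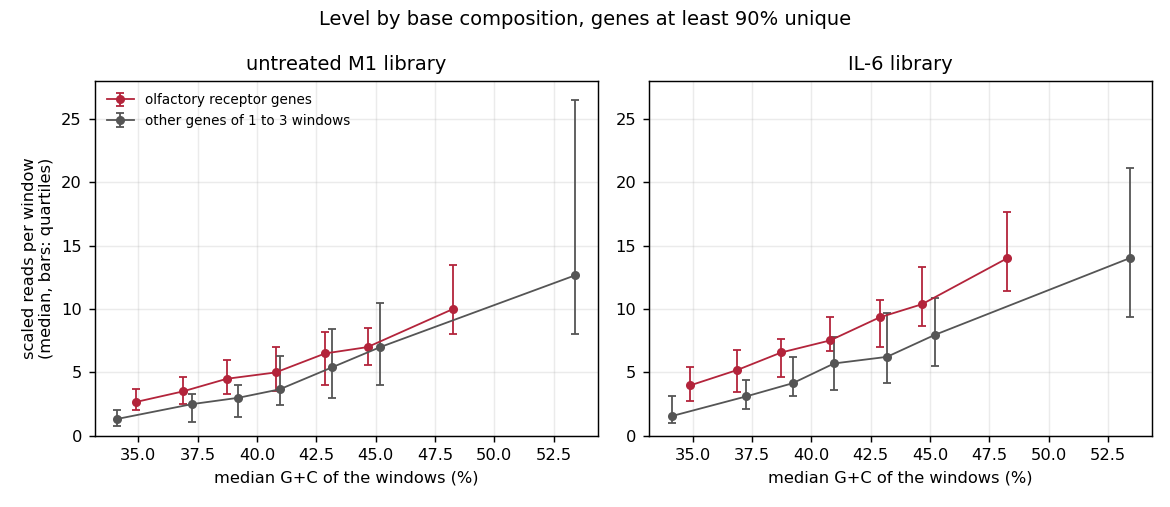
Median level (vertical axis, scaled reads per window, bars from the lower to the upper quartile) in bins of G+C content (horizontal axis, median percent of the bin) for genes at least 90% unique, in the untreated library (left) and the IL-6 library (right). Olfr genes (red) rise from 2.67 to 10 and from 3.98 to 14.02, and other genes of 1 to 3 windows (gray) rise as well.

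Low levels went with low uniqueness. The 11 members less than 25% unique had a median level of 1.5 in untreated cells, the 277 members of 50 to 75% had 2.67 and the 229 members of at least 99% had 5. Of the 55 members at or below 0.25 times the median level in untreated cells, 6 were at least 90% unique, and of the 67 such members with IL-6, 4 were. How reads that match several places were placed is not given in the sources used here, and its part in these low values was not tested.

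Of the 6 members without a read in either library, 5 were less than 75% unique. The windows of Olfr247 and Olfr1506 are 0% unique, and each coding span has an identical copy, that of Olfr247 at chr10:129420536-129421498 and that of Olfr1506 at chr2:90164354-90165283, under no other listed Olfr gene. Olfr782 is 33.2% unique and 98.9% identical to chr10:128748221-128749164, a stretch that holds the shorter listed span of Olfr779. Olfr1432 is 47.4% unique with a 98.6% identical copy at chr19:12240649-12241578. Olfr1431 is 63.4% unique, and its nearest copy is Olfr235, 96.5% identical, which had 1 read in untreated cells and 4 with IL-6. Olfr1187-ps1, a pseudogene of 387 bp on chromosome 2, is the exception: it is 83.6% unique and no 32-bp sequence of its span occurs elsewhere. Its neighbors Olfr1186 and Olfr1188 had 4 and 7 reads in untreated cells and 10 and 8 with IL-6. Among members empty in a single library, Olfr1058, Olfr1325 and Olfr1360 had 0 reads in untreated cells and 1, 4 and 2 reads with IL-6, and Olfr1204, Olfr1281 and Olfr1316 had 2, 6 and 2 reads in untreated cells and 0 with IL-6. As a one-sided limit a count of 0 allows up to 3 reads in a library, and the two-sided interval of the levels allows somewhat more, so these spans are not shown to be without signal. The first 90 bases of Olfr1431 (chr19:12284058-12284996, plus strand) and its copy are given with the differing bases in capitals, followed by the shared sequence of Olfr1506 (chr2:90061724-90062653, minus strand) and its copy.
Olfr1431: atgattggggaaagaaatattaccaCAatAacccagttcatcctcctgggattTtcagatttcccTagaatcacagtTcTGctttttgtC
Olfr235: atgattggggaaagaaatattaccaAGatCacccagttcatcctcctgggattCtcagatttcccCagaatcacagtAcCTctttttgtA
Olfr1506: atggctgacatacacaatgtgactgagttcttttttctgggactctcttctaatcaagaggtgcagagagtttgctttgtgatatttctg

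Members far above the median were spread over many clusters. In untreated cells 187 members reached 2 times the median level, in 39 clusters, and 128 did with IL-6, in 31 clusters, with 105 in both. Their median G+C was 45.1% and 46.6%, against 39.6% for all members. In both libraries they made up 8 of the 9 genes of the chromosome 15 cluster, 6 of the 8 genes at 94.4 Mb on chromosome 1 and 10 of the 23 genes at 58.3 to 59.4 Mb on chromosome 11. They made up 21 of the 129 class I genes and 8 of the 36 genes of the chromosome 14 cluster. Only 3 members reached 10 times the median in untreated cells (Olfr1509, Olfr1264 and Olfr1511) and 1 with IL-6 (Olfr1509). At or below 0.25 times the median in both libraries were 24 members, 7 of them in the large chromosome 2 cluster and 6 in the chromosome 10 cluster of 58 genes.

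Apart from the strongest spans the members varied moderately beyond counting error, for which variance and mean would be equal. Among the 742 members of 2 windows the variance of the reads was 191 times the mean in untreated cells and 10.2 times with IL-6. Without Olfr1509, Olfr1264 and Olfr1511 it was 5.85 and 5.97 times. Among the members of 3 windows it was 10.8 and 8.50 times, and 7.61 and 8.51 times without Olfr1511. The rank of members was largely shared by the libraries (Spearman correlation 0.75 over 1113 members), which have G+C and uniqueness in common.

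The largest changes outside the strongest spans rested on few reads. The 5 largest rises were those of Olfr1440 (3 reads in untreated cells, 21 with IL-6; ratio 7.27, 2.17 to 38.1), Olfr424 (3 and 18), Olfr1231 (4 and 20), Olfr704 (5 and 23) and Olfr641 (5 and 20). Their intervals all lay above 1, but with 605 members compared some intervals would do so from counting error alone. The 5 largest falls were those of Olfr1509, Olfr1213, Olfr1511, Olfr1264 and Olfr1230. Olfr1213 had 18 reads in untreated cells and 3 with IL-6 (ratio 0.173, 0.033 to 0.593). Olfr1230 had 36 and 17, of which 26 and 8 were in its strongest window (ratio 0.490, 0.258 to 0.896). Olfr1230 and Olfr1231 are neighbors on chromosome 2 and moved in opposite directions.

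Values of well-studied receptors are given next. Olfr16 (MOR23), Olfr17 (P2), Olfr2 (I7) and Olfr73 (mOR-EG) had 7, 7, 8 and 7 reads in untreated cells and 13, 14, 12 and 15 with IL-6, and the interval of the ratio included 1 for each. Olfr78, a receptor for short-chain fatty acids that is also expressed outside the nose, had 24 and 39 reads (ratio 1.69, 0.989 to 2.93), a level of 12 and 20.2 that is over 3 times the median member in both libraries. Olfr544 had 22 and 20 reads in windows 55.9% unique, and Olfr1445 had 8 in both. Olfr151 (M71) is listed with a transcript of 29 windows, most of them intron, with 95 and 174 reads (ratio 1.90, 1.47 to 2.47). Olfr160 (M72) is not analyzed here.

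A list of 23 genes of odorant signaling and receptor choice was described in the same way. Of the 22 with at least 20 reads, 1 was at least 2-fold lower with IL-6 (12.6% of all genes were) and 0 were at least 2-fold higher (2.43% of all genes were). The interval lay below 1 for 3 (32.1% of all genes) and above 1 for 7 (27.5% of all genes), and the median log2 ratio was 0.15 (0.05 over all genes). The gene that was at least 2-fold lower was Ldb1, a cofactor of Lhx2 in the enhancer hub that chooses a receptor and also a cofactor in blood cells, with 525 reads without and 197 with IL-6 (ratio 0.390, 0.329 to 0.460). Omp, the marker protein of mature olfactory neurons, had 8 and 7 reads in its window. The olfactory channel subunit gene Cnga2, on chromosome X, had 25 reads in each library, a level of 2.5 and 2.60. The 8 myeloid genes listed had a median level of 12.5 in untreated cells and 8.90 with IL-6. The interval of the ratio lay below 1 for 5 (32.1% of all genes) and above 1 for 2 (27.5% of all genes). Sfpi1, which encodes PU.1, had 28.9 without and 12.9 with IL-6 (ratio 0.447, 0.405 to 0.493), while Kit (1.33, 1.18 to 1.504) and Mpo (1.26, 1.01 to 1.57) had ratios above 1. Lists of 3 T cell, 3 B cell and 3 erythroid genes had median levels of 6.95, 8.71 and 3 in untreated cells. With IL-6 these were 8.70, 10.3 and 3.11. All these spans measure DNase I signal and not expression, so the identity of the cells was not tested by them.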

How the data were processed

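The authors digested nuclei with DNase I, sequenced short fragments, trimmed the reads, mapped them to NCBIM37 by BWA and quantified the windows in Seqmonk. In the deposited table the signal is the mean and SD over 700-bp windows that a coding span touches, for 55432 transcripts. The read length and the scaling of the IL-6 column are not given in the sources used here, and 1 column held no values.

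Reads were recovered as mean times windows over the value of 1 read, and 100% of values in both libraries were within 0.05 of whole numbers. The recovery was tested on simulated data. Each gene is its transcript with the most windows. G+C and uniqueness of 32-bp sequences came from the NCBIM37 genome, and all 1113 members matched GENCODE M1. Ratios have 95% Clopper-Pearson intervals and levels exact Poisson intervals. Counts of 2-fold changes add 0.5 reads to each library and need at least 20 reads. Named genes are the 5 members with most and with least reads per window in each library (ties by symbol), the 5 largest rises and falls, members at 0 in both libraries, well-studied receptors and the neighbors of outliers. Members, lists and settings were chosen with earlier results of these data known, and the motifs, the neighborhood of Olfr1509 and fits without it after their values were seen. Alternatives covered scaling, transcript, uniqueness, shared windows, pseudogenes, thresholds and gaps. Python 3.11.15, numpy 2.4.6, pandas 2.3.3, scipy 1.17.1, numba 0.67.0, edlib 1.3.9.post1 and matplotlib 3.10.9 were used.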

Additional observations from a re-analysis of the deposited data

How the results depend on the processing

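No paired analysis was possible because there is no second library of either condition. Of 113 values from other settings, 67 stayed within the main interval or within 1.5 times the main count, 44 moved further and 2 turned direction. Both turns were the ratio of chromosome 14, 0.479 as reported, which was 1.55 without members at or above 2 times the median, 1.63 as the median over members, and 0.999 without Olfr1509. Settings that leave out Olfr1509 or name it were added after its values were seen, and so was the scaling to strong genes. The cause of the other movements was not tested.

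Scaling moved the Olfr ratio from 1.24 to 1.198 with none, to 1.27 with the total over all genes and to 3.18 with the median of strong genes. The ratio of class II was then 1.17, 1.24 and 3.11, that of class I was 3.76 in the last case, and with strong genes 1 member was at least 2-fold lower and 563 higher. Scaling to strong genes raises every log2 ratio by 1.36, which by itself passes the 2-fold limit. Without members under 90% unique the levels were 6.75 and 7.997, the ratio 1.18, and 64 members were 2-fold higher. The median was then that of the remaining members, 4.67 in untreated and 6.92 in IL-6-treated cells. At least 2 times this median were 71 and 59 members, and at most 0.25 times it were 15 and 12. The variance was then 305 times the mean over 2 windows and 7.13 times over 3 windows in untreated cells, and the Olfr level was 3.54 and 2.66 times the vomeronasal level. Without members that share windows the levels were 5.04 and 6.25, and as the median over members 3.67 and 5.54. Without Olfr1509 the level in untreated cells was 4.72, the ratio 1.35, that of class II 1.33, and 0 clusters had an interval below 1. Without the 3 strongest members the variance over 2 windows was 5.85 and 5.97 times the mean. The ratio was 1.47 without members at or above 2 times the median and 1.38 as the median of the members' ratios.

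Counts moved with their thresholds. At least 10 reads gave 17 members lower and 206 higher, at least 40 reads 16 higher, a 1.5-fold limit 25 lower and 236 higher, and 5 added reads 43 higher. The counts of members lower or higher in this section have no matched share over all genes. At 1.5 times the median 351 and 293 members were high, and at 3 times 65 and 43.

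At a median of 3.67 reads per window a single receptor span cannot show a small change, and 508 members had fewer than 20 reads over both libraries.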

Other observations

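Trace amine-associated receptors (Taar genes), a second family of nasal receptors on chromosome 10, were at levels like those of the Olfr genes. The 15 genes had a median of 4 reads per window in untreated cells, with a range of 1.33 to 14.7. Of the 9 genes with at least 20 reads, 3 were at least 2-fold higher with IL-6 and 0 lower, where 2.43% and 12.6% of all genes were. These were Taar1 (9 reads without and 22 with IL-6, ratio 2.54, 1.12 to 6.26), Taar2 (20 and 58, ratio 3.01, 1.78 to 5.28) and Taar9 (8 and 24, ratio 3.11, 1.35 to 8.02).

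The beta-globin genes, which lie inside the class I cluster, had 2.67 to 4.33 reads per window in untreated cells, below the 5 of the median class I receptor. With IL-6 they had 2.08 to 8.65, and Hbb-bh2 was above the 7.27 of the median class I receptor. The uniqueness of these spans is not given here. The embryonic gene Hbb-y had 8 reads without and 17 with IL-6 (ratio 2.21, 0.902 to 5.91) and Hbb-bh2 had 10 and 25 (ratio 2.60, 1.204 to 6.06). The adult gene Hbb-b1 had 9 and 7, Hbb-b2 had 8 and 6, and Hbb-bh1 had 13 and 16.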
